A study of Arabidopsis thaliana with 15 samples.

Results

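The chloroplast genome of Arabidopsis encodes core subunits of every complex of the photosynthetic apparatus. The transcripts of 43 of the 44 plastid genes named psa, psb, pet, ndh, atp or rbcL were followed through the stomatal lineage, complex by complex. A member was any such gene of the plastid genome with a probe set listed to it alone on the ATH1 microarray, a one-colour array of short oligonucleotide probes. Among 20956 probe sets, 12783 were listed to 1 gene and 43 to a member, 1 for each gene. They covered 5 genes of photosystem I, 15 of photosystem II, 6 of the cytochrome b6f complex, 10 of the NAD(P)H dehydrogenase-like (NDH) complex, 6 of the ATP synthase and rbcL of Rubisco. No probe set was listed to ndhB, the remaining gene.

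The study sorted fluorescent protoplasts (cells freed of their walls) from seedlings of the accession Col and hybridised 3 arrays for each of 5 populations, 15 in all. Seedlings were 14 days old and had grown at 25 °C on 1% sucrose with 16 h light and 8 h dark, and their aerial tissue was digested for 2 h before the sort. Epidermis cells carried ML1p::YFP-RCI2A, a membrane marker under an epidermal promoter. Early precursors carried SPCHp::SPCH-YFP, a fusion with the transcription factor that starts the lineage. Middle precursors carried MUTEp::nucGFP, a nuclear reporter under the promoter of the next factor, and late precursors carried FAMAp::GFP-FAMA, a fusion with the factor of the last division. Mature guard cells carried E1728::GFP, an enhancer trap line. A replicate held 2000 to 20000 sorted cells. Each population came from a reporter line of its own, so the line and the stage cannot be told apart. The labels do not say that the replicates came from separate cultures, so p-values measure the spread between these arrays only.

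As background, light energy absorbed by photosystem II drives electrons out of water and through the cytochrome b6f complex to photosystem I, while the NDH complex returns electrons to the chain. The proton gradient so formed drives the ATP synthase, and Rubisco fixes carbon dioxide in the stroma. Most of these plastid genes are transcribed together in polycistronic units, partly by a plastid-encoded RNA polymerase, and their subunits assemble with others encoded in the nucleus. Guard cells of Arabidopsis hold fewer and smaller chloroplasts than mesophyll cells, and pavement cells of the epidermis hold small ones too.

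Array medians lay between 2.52 and 2.68 on the log2 scale, and the highest of them served as the level below which a group mean was taken as near background. The residual SD over all probe sets was 0.658 in the early precursors and 0.282 to 0.383 in the other populations. Late precursor replicates 2 and 3 were closer than any other pair within a population, with an SD of their difference of 0.209 against 0.357 or more. They were kept as separate samples. Of the lineage markers, SPCH averaged 9.11 ± 0.10 (SD, n = 3) in the early precursors and FAMA 10.11 ± 0.26 in the late precursors. The fusion constructs may add to both signals, which was not tested. CHX20, a guard cell cation exchanger, averaged 10.03 ± 0.13 in the late precursors and 9.66 ± 0.26 in mature cells. It is the only gene given here from a longer guard cell list. Levels of SPCH, FAMA and CHX20 in the other populations are not given here, so enrichment cannot be read from these values. MUTE stayed near background in every population, including the one sorted on its promoter, and epidermal markers were not analysed here.

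By group mean, plastid photosynthesis transcripts were lower in the stomatal lineage than in the epidermis as a whole in every complex, except psbF in early precursors. In late precursors alone, every complex held a member that passed the test described next. By limma's moderated test with Benjamini-Hochberg adjustment over all probe sets, 12 of 43 members fell in early precursors, 27 in middle precursors, 38 in late precursors and 30 in mature cells, and 0 rose in any of them. The share of all probe sets called lower was 5.51% in early, 2.29% in middle and 3.26% in late precursors, and 1.62% in mature cells. Among the 9960 probe sets above background the shares were 10.9%, 3.73%, 5.42% and 2.38%, respectively. Called higher were 3.4%, 3.24%, 4.75% and 2.29% of all probe sets. The median log2 difference of the members was -0.58, -0.87, -1.15 and -1.01, against 0.07, -0.05, -0.06 and -0.06 over all probe sets. The 4 comparisons share the 3 epidermis arrays, so their values stand side by side and are not independent of each other. The early count fell to 5 with cyclic loess, 2 with array weights and 0 with only both groups fitted by limma (20 at an unadjusted p below 0.05). The middle count was 8 with an intensity trend and robust prior, and leaving out single arrays moved the counts to 4 in early, 4 in middle and 17 in mature cells, and to 29 in late precursors.

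**Figure D1:**
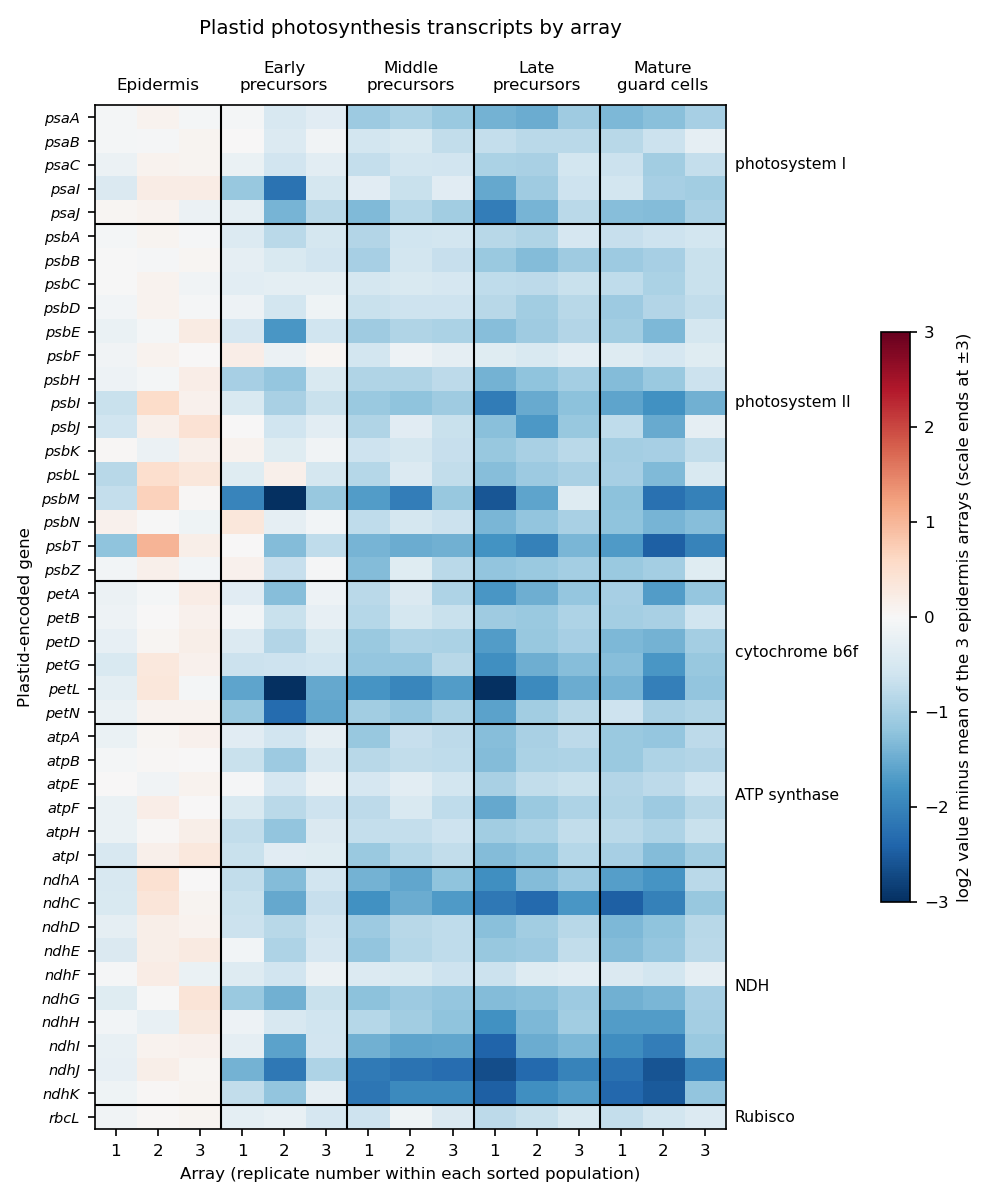
Heat map of the 43 members (one line per gene, grouped by complex) over the 15 arrays; colour gives the log2 value minus that gene's mean in the 3 epidermis arrays, from -3 (blue) to 3 (red). Nearly all cells of the late precursors and mature guard cells are blue, and the darkest cells lie in petL and psbM, followed by ndhJ, ndhK, psbT and ndhC.

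In the heat map of values relative to the epidermis, most lineage arrays lie below 0 in each complex. Relative to each gene's mean over all 15 arrays, the median deviation of the 43 members was 0.48, 0.80 and 0.92 in the epidermis arrays and 0.33, -0.09 and 0.28 in the early precursors. It was -0.25, -0.07 and -0.08 in the middle precursors, -0.62, -0.40 and -0.20 in the late precursors, and -0.43, -0.47 and -0.11 in mature cells. All 3 arrays of a stage lay below all 3 epidermis arrays for 27 members in early, 40 in middle and 42 in late precursors, and for 41 in mature cells. Over all probe sets this was so for 9.93%, 16.2%, 17.6% and 17.1%. The epidermis held the highest group mean for 42 members, the exception being psbF. In sorted bulk RNA, fewer cells of a type and less RNA per cell cannot be told apart, and the values are shares of each sample's signal. The epidermal reporter marks the whole epidermis, lineage cells included.

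The mesophyll marker measured well above background, RCA, moved in the same direction, but it is itself a photosynthesis gene. It cannot tell mesophyll signal apart from a change of photosynthesis genes within the sorted cells. Of 12 genes on the mesophyll list, 2 were measured. RCA, Rubisco activase, averaged 9.75 ± 0.61 (SD, n = 3) in the epidermis, 7.85 ± 1.53 in early, 7.46 ± 0.20 in middle and 7.40 ± 0.56 in late precursors, and 7.88 ± 0.56 in mature cells. EPFL9 (STOMAGEN), a mesophyll signal peptide, averaged 2.69 ± 0.46 in the epidermis, at the background level, and 1.55 ± 0.13 to 2.13 ± 0.05 in the stages, below it. SWEET11, a phloem sucrose transporter, stayed near background in every group mean, and TRY, a trichome gene, averaged 3.83 ± 2.41 in early precursors with 1 array at 6.61. The part of such cells in the member differences was not tested.

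**Figure D2:**
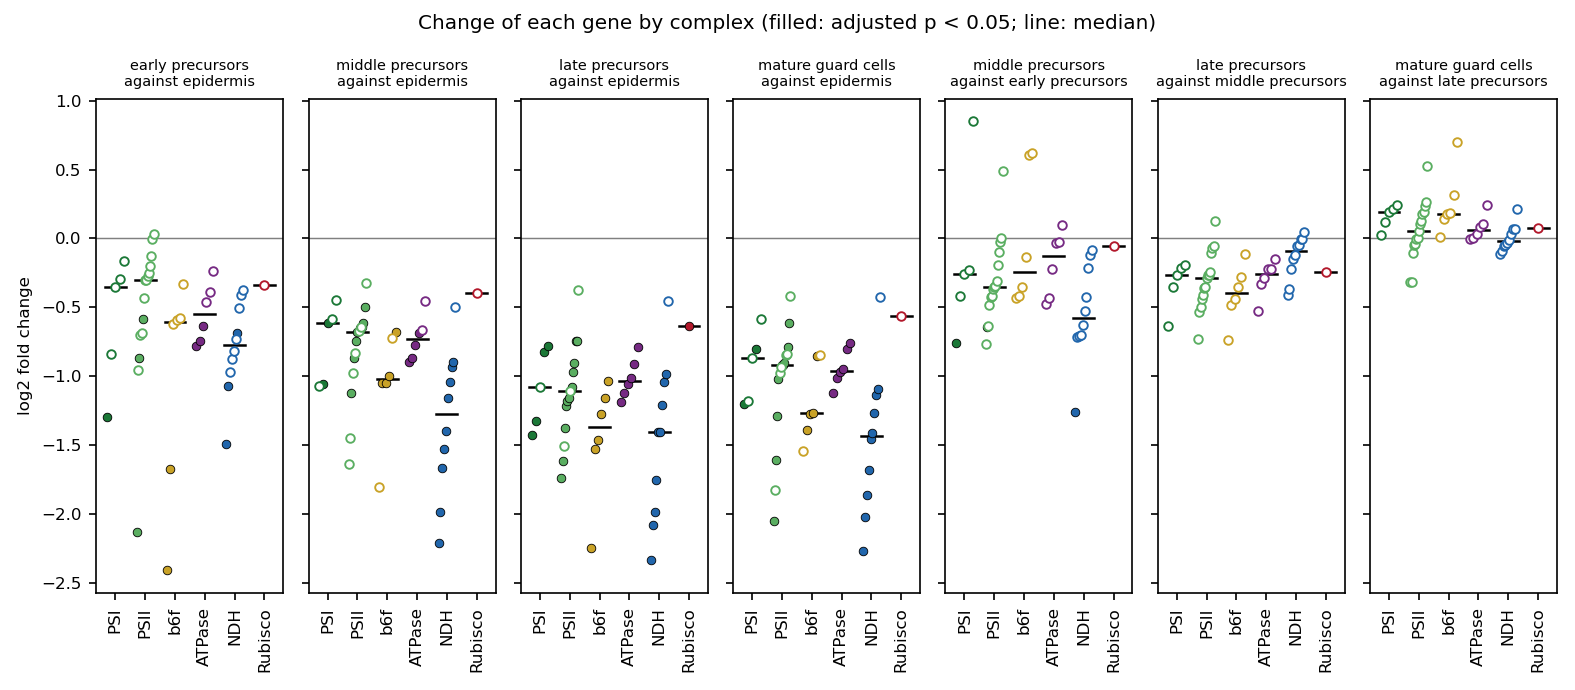
Log2 difference of each member (points, one per gene; filled where the limma adjusted p is below 0.05) in the 4 lineage populations, and between neighbouring stages, by complex; the short line is the median of a complex. Nearly all points against the epidermis lie below 0, and the NDH median is the lowest line in each of those 4 panels.

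In the plot of differences by complex, NDH had the lowest median and cytochrome b6f the next in each of the 4 populations. In late precursors the median log2 difference was -1.08 for photosystem I, -1.11 for photosystem II, -1.37 for cytochrome b6f, -1.41 for NDH, -1.03 for the ATP synthase and -0.64 for rbcL. The members called lower were 4 of 5, 12 of 15, 6 of 6, 9 of 10, 6 of 6 and 1 of 1. In middle precursors the NDH genes stood lowest, with a median of -1.28 and 9 of 10 called, against -0.61 to -1.02 for the other complexes of several genes. Differences between complexes were not tested, since genes of a complex are not replicates of a condition.

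For photosystem I, which passes electrons to ferredoxin, psaA and psaC fell from the middle stage on. psaA encodes a large reaction-centre protein that pairs with the psaB product. On the log2 scale psaA read 11.06, 11.23 and 11.07 in the epidermis arrays, 11.06, 10.65 and 10.77 in the early, 10.03, 10.17 and 10.00 in the middle and 9.71, 9.64 and 10.05 in the late precursors, and 9.77, 9.86 and 10.12 in the mature guard cells. The early arrays began just below the epidermis, and all middle, late and mature arrays lay well below both. The log2 difference from the epidermis was -0.30 (SE 0.15, adjusted p = 0.278) in early, -1.06 (SE 0.15, adjusted p = 0.00218) in middle and -1.32 (SE 0.15, adjusted p = 0.000375) in late precursors, and -1.20 (SE 0.15, adjusted p = 0.00132) in mature cells. This is 2.50-fold lower in late precursors. Its partner psaB differed by -0.17, -0.58, -0.78 and -0.58 in early, middle, late and mature cells and was called in late precursors. psaC, which holds the terminal iron-sulphur clusters, differed by -0.36, -0.61, -0.83 and -0.80 and was called in the last 3.

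Among the small subunits, psaI, a single-helix protein at the rim of the complex, is the gene of this complex with the weakest evidence of change over the 5 populations. psaI read 8.40, 9.05 and 9.05 in the epidermis arrays, 7.69, 6.61 and 8.31 in the early, 8.50, 8.17 and 8.49 in the middle and 7.28, 7.77 and 8.21 in the late precursors, and 8.28, 7.83 and 7.78 in the mature guard cells. Here the early arrays were low and scattered over more than 1 unit, and the middle arrays overlapped the epidermis. The difference was -1.29 (SE 0.37, adjusted p = 0.0465) in early precursors and -0.44 (SE 0.37, adjusted p = 0.537), -1.08 (SE 0.37, adjusted p = 0.0975) and -0.87 (SE 0.37, adjusted p = 0.210) in middle, late and mature cells. The early call was lost under 16 of 23 alternatives, with an adjusted p of up to 0.281. psaJ, which lies near the docking site of the electron donor, differed by -0.84, -1.07, -1.42 and -1.18 and was called in late precursors.

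For photosystem II, 3 of 15 genes fell in early, 8 in middle, 12 in late and 9 in mature cells. psbA encodes the D1 reaction-centre protein, which is replaced continually under light. psbA read 12.07, 12.23 and 12.11 in the epidermis arrays, 11.72, 11.33 and 11.62 in the early, 11.26, 11.55 and 11.57 in the middle and 11.30, 11.25 and 11.63 in the late precursors, and 11.45, 11.51 and 11.59 in the mature guard cells. No lineage array reached the epidermis. The difference was -0.58 (SE 0.15, adjusted p = 0.0295) in early, -0.68 (SE 0.15, adjusted p = 0.0207) in middle and -0.75 (SE 0.15, adjusted p = 0.00899) in late precursors, and -0.62 (SE 0.15, adjusted p = 0.0411) in mature cells. The early call was lost under 9 of 23 alternatives, with an adjusted p of up to 0.517, and the mature call was lost under 15 of 24 alternatives, with an adjusted p of up to 0.171. The partner protein D2, from psbD, differed by -0.27, -0.64, -0.90 and -0.91 in the same order, with no call in early precursors. The inner antenna genes psbB and psbC (CP47 and CP43) differed by -0.43, -0.74, -1.15 and -0.92 and by -0.30, -0.49, -0.74 and -0.79, again called in the last 3.

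psbN, needed in tobacco for assembly of the reaction centre, had the strongest evidence of change in this complex. psbN read 10.19, 10.04 and 9.93 in the epidermis arrays, 10.39, 9.80 and 9.97 in the early, 9.29, 9.52 and 9.41 in the middle and 8.68, 8.86 and 9.08 in the late precursors, and 8.85, 8.66 and 8.78 in the mature guard cells. Early precursors overlapped the epidermis, middle precursors were lower, and late and mature arrays were lower still without overlap with the middle ones. The difference was 0.00 (SE 0.16, adjusted p = 0.995) in early precursors, with a 95% interval of -0.36 to 0.35. It was -0.65 (SE 0.16, adjusted p = 0.0397) in middle and -1.18 (SE 0.16, adjusted p = 0.00121) in late precursors and -1.29 (SE 0.16, adjusted p = 0.00132) in mature cells, or 2.27-fold and 2.45-fold lower in the last pair. The middle call was lost under 14 of 24 alternatives, with an adjusted p of up to 0.147. psbN lies on the strand opposite to psbT and psbH, and the labels do not say whether the labelling kept the strand, so RNA of both strands cannot be told apart.

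psbM, a small subunit at the contact of both monomers, had the weakest evidence of change in the complex. psbM read 4.52, 5.93 and 5.28 in the epidermis arrays, 3.25, 1.99 and 4.11 in the early, 3.57, 3.16 and 4.1 in the middle and 2.69, 3.67 and 4.85 in the late precursors, and 4.02, 3.02 and 3.21 in the mature guard cells. The early arrays ranged from background to 4.11, and late replicate 3 overlapped the epidermis. The difference was -2.13 (SE 0.60, adjusted p = 0.0446) in early precursors, and -1.63 (SE 0.60, adjusted p = 0.143), -1.51 (SE 0.60, adjusted p = 0.153) and -1.83 (SE 0.60, adjusted p = 0.110) in the later populations. The early call was lost under 13 of 23 alternatives, with an adjusted p of up to 0.228. Among the cytochrome b559 genes and their neighbours, psbE differed by -0.95, -0.98, -1.08 and -0.97 and psbF by 0.03, -0.32, -0.37 and -0.41 in early, middle, late and mature cells. psbE was called in late precursors, psbF in none, and the adjusted p of psbF lay between 0.120 and 0.927. psbL and psbJ, small subunits of the same unit, differed by -0.25, -0.67, -1.11 and -0.93 and by -0.30, -0.64, -1.37 and -0.84, and only psbJ was called, in late precursors.

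The other small subunits were lower too. psbH, whose product is phosphorylated at the stromal side, differed by -0.87, -0.87, -1.22 and -1.02 in early, middle, late and mature cells and was called in all. psbK and psbI differed by -0.13, -0.61, -0.97 and -0.92 and by -0.70, -1.12, -1.62 and -1.61 and were called in the last 3, as were psbB, psbC and psbD. psbT differed by -0.68, -1.45, -1.74 and -2.05. It was called in late precursors and mature guard cells, and its mature mean of 2.64 ± 0.37 (SD, n = 3) lay at the background level, which limits the last difference. psbZ, which links the core to its antenna, differed by -0.20, -0.83, -1.10 and -0.83 and was called in late precursors.

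For the cytochrome b6f complex, 2 of 6 genes fell in early, 4 in middle, 6 in late and 4 in mature cells. petB encodes cytochrome b6. petB read 10.54, 10.69 and 10.82 in the epidermis arrays, 10.60, 10.02 and 10.44 in the early, 9.84, 10.15 and 10.03 in the middle and 9.62, 9.58 and 9.75 in the late precursors, and 9.68, 9.72 and 10.09 in the mature guard cells. The early arrays overlapped the epidermis and the late arrays lay below all middle ones. The difference was -0.33 (SE 0.17, adjusted p = 0.284) in early, -0.68 (SE 0.17, adjusted p = 0.0391) in middle and -1.03 (SE 0.17, adjusted p = 0.00324) in late precursors, and -0.85 (SE 0.17, adjusted p = 0.0180) in mature cells. The middle call was lost under 13 of 24 alternatives, with an adjusted p of up to 0.148. petD (subunit IV) differed by -0.58, -0.99, -1.27 and -1.26 and was called in the last 3. petA (cytochrome f) differed by -0.59, -0.72, -1.46 and -1.28 and was called in late and mature cells.

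Of the small b6f subunits, petG had the strongest evidence of change. petG read 7.25, 8.03 and 7.83 in the epidermis arrays, 7.06, 7.08 and 7.11 in the early, 6.54, 6.55 and 6.87 in the middle and 5.85, 6.24 and 6.43 in the late precursors, and 6.42, 5.96 and 6.56 in the mature guard cells. The values stepped down from epidermis to early to middle to late precursors, with no overlap between neighbouring groups. The difference was -0.62 (SE 0.22, adjusted p = 0.113) in early, -1.05 (SE 0.22, adjusted p = 0.0175) in middle and -1.53 (SE 0.22, adjusted p = 0.00152) in late precursors, and -1.39 (SE 0.22, adjusted p = 0.00530) in mature cells, or 2.89-fold lower in late precursors. petG is essential for the complex in tobacco and Chlamydomonas.

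petL, which helps to stabilise the complex, and petN, without which tobacco does not assemble it, were lowest by mean in early precursors, for petL through 1 array. petL read 5.99, 6.61 and 6.21 in the epidermis arrays, 4.68, 2.16 and 4.75 in the early, 4.49, 4.32 and 4.59 in the middle and 2.93, 4.36 and 4.79 in the late precursors, and 4.88, 4.22 and 5.08 in the mature guard cells. Early replicate 2 and late replicate 1 lay far below the other arrays of their groups, and no lineage array reached the epidermis. The difference was -2.41 (SE 0.61, adjusted p = 0.0279) in early precursors, -1.81 (SE 0.61, adjusted p = 0.112) in middle and -2.24 (SE 0.61, adjusted p = 0.0419) in late precursors, and -1.54 (SE 0.61, adjusted p = 0.177) in mature cells. Without early replicate 2 the early difference of petL was -1.56 (limma adjusted p = 0.0457), or 2.94-fold rather than 5.30-fold lower, and the early mean of 4.71 stood above the middle mean of 4.46 and the late mean of 4.03. The early call was lost under 5 of 23 alternatives, with an adjusted p of up to 0.205, and the late call was lost under 13 of 24 alternatives, with an adjusted p of up to 0.138. petN, chosen here after its values were seen, read 10.94, 11.26 and 11.25 in the epidermis, 10.01, 8.85 and 9.59 in early, 10.12, 10.00 and 10.20 in middle and 9.55, 10.11 and 10.31 in late precursors, and 10.52, 10.17 and 10.24 in mature cells. Early replicate 2 was the lowest array. The stages lay below the epidermis and overlapped each other, except that all early arrays lay below all mature ones. It was 3.18-fold lower in early precursors, with a log2 difference of -1.67 (SE 0.26, adjusted p = 0.00185), and differed by -1.05, -1.16 and -0.84 afterwards, the last without a call (adjusted p = 0.0963).

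For the ATP synthase, 3 of 6 genes fell in early, 4 in middle and 6 in late and in mature cells. atpB encodes the catalytic beta subunit. atpB read 11.84, 11.92 and 11.92 in the epidermis arrays, 11.22, 10.81 and 11.41 in the early, 11.07, 11.16 and 11.14 in the middle and 10.60, 10.95 and 10.96 in the late precursors, and 10.78, 10.97 and 11.02 in the mature guard cells. No lineage array overlapped the epidermis, and the late and mature arrays lay below all middle ones. The difference was -0.75 (SE 0.16, adjusted p = 0.0115) in early, -0.77 (SE 0.16, adjusted p = 0.0155) in middle and -1.06 (SE 0.16, adjusted p = 0.00195) in late precursors, and -0.97 (SE 0.16, adjusted p = 0.00592) in mature cells. Its neighbour atpE (epsilon subunit) differed by -0.23, -0.46, -0.79 and -0.76 and was called in late and mature cells.

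atpA encodes the alpha subunit, which alternates with beta in the head. atpA read 10.33, 10.59 and 10.64 in the epidermis arrays, 10.19, 9.95 and 10.25 in the early, 9.39, 9.84 and 9.73 in the middle and 9.24, 9.55 and 9.73 in the late precursors, and 9.42, 9.36 and 9.74 in the mature guard cells. The early arrays lay just below the epidermis and the later ones lower. The difference was -0.39 (SE 0.18, adjusted p = 0.207) in early, -0.87 (SE 0.18, adjusted p = 0.0146) in middle and -1.01 (SE 0.18, adjusted p = 0.00426) in late precursors, and -1.01 (SE 0.18, adjusted p = 0.00859) in mature cells. atpH encodes the ring subunit of the membrane rotor. atpH read 11.92, 12.14 and 12.29 in the epidermis arrays, 11.39, 10.94 and 11.69 in the early, 11.40, 11.41 and 11.49 in the middle and 11.08, 11.18 and 11.38 in the late precursors, and 11.31, 11.18 and 11.45 in the mature guard cells. All lineage arrays lay below the epidermis. The late arrays lay below all middle ones, while the early and mature arrays overlapped both of these stages and each other. The difference was -0.78 (SE 0.18, adjusted p = 0.0170), -0.69 (SE 0.18, adjusted p = 0.0452), -0.91 (SE 0.18, adjusted p = 0.00857) and -0.80 (SE 0.18, adjusted p = 0.0290) in early, middle, late and mature cells. The middle call was lost under 16 of 24 alternatives, with an adjusted p of up to 0.151. atpF, a stator subunit, differed by -0.64, -0.67, -1.19 and -0.94 and missed the call in middle precursors only (adjusted p = 0.0527). atpI, beside the rotor, differed by -0.46, -0.90, -1.12 and -1.12 and was called in the last 3.

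rbcL, the large subunit of Rubisco, had a smaller difference in late precursors than the median of every complex. rbcL read 13.16, 13.30 and 13.35 in the epidermis arrays, 12.98, 13.04 and 12.77 in the early, 12.65, 13.14 and 12.85 in the middle and 12.49, 12.60 and 12.82 in the late precursors, and 12.55, 12.72 and 12.86 in the mature guard cells. All late and mature arrays lay below the epidermis, and so did the early and middle ones, by less. The difference was -0.34 (SE 0.16, adjusted p = 0.212) in early, -0.39 (SE 0.16, adjusted p = 0.173) in middle and -0.64 (SE 0.16, adjusted p = 0.0249) in late precursors, and -0.56 (SE 0.16, adjusted p = 0.0671) in mature cells, or 1.56-fold lower in late precursors. Only the late difference passed the threshold, and that call was lost under 7 of 24 alternatives, with an adjusted p of up to 0.682.

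The NDH complex, as described, had the lowest medians. ndhJ encodes a subunit of the stromal arm. ndhJ read 9.0, 9.43 and 9.32 in the epidermis arrays, 7.83, 7.10 and 8.32 in the early, 7.13, 7.04 and 6.95 in the middle and 6.59, 6.92 and 7.24 in the late precursors, and 7.01, 6.67 and 7.27 in the mature guard cells. Every lineage array lay below every epidermis array, and early replicates 1 and 3 lay above all later arrays. The difference was -1.49 (SE 0.28, adjusted p = 0.00497) in early, -2.21 (SE 0.28, adjusted p = 0.000746) in middle and -2.33 (SE 0.28, adjusted p = 0.000419) in late precursors, and -2.26 (SE 0.28, adjusted p = 0.000984) in mature cells. These are 2.82-fold, 4.62-fold, 5.03-fold and 4.80-fold lower levels.

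ndhK and ndhC are transcribed with ndhJ. ndhK, given here by array because it was called between stages, read 10.00, 10.17 and 10.20 in the epidermis and 9.39, 8.95 and 9.86 in early precursors. It then read 7.97, 8.23 and 8.23 in middle and 7.68, 8.28 and 8.46 in late precursors and 7.76, 7.62 and 8.95 in mature cells. Early precursors stood between the epidermis and the middle precursors, and mature replicate 3 stood above the other arrays of its group. The difference from the epidermis was -0.73 (SE 0.33, adjusted p = 0.207) in early and -1.99 (SE 0.33, adjusted p = 0.00434) in middle precursors. It was -1.99 (SE 0.33, adjusted p = 0.00307) in late precursors and -2.02 (SE 0.33, adjusted p = 0.00566) in mature cells. ndhC, a membrane-arm subunit, differed by -0.97, -1.67, -2.08 and -1.86 and was called in the last 3.

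The other NDH genes measured above background lie in the ndhH unit. ndhG and ndhD, membrane-arm subunits, differed by -1.07, -1.15, -1.21 and -1.27 and by -0.68, -0.90, -1.04 and -1.13 in early, middle, late and mature cells and were called in all. ndhA, ndhE, ndhH and ndhI were called in the last 3. In late precursors they differed by -1.40, -0.98, -1.41 and -1.75. ndhF, a large membrane-arm subunit, read 2.28, 2.54 and 2.11 in the epidermis, 1.93, 1.74 and 2.15 in early, 1.89, 1.86 and 1.70 in middle and 1.66, 1.93 and 1.99 in late precursors, and 1.87, 1.75 and 2.04 in mature cells. Early replicate 3 alone overlapped the epidermis, and all values lay below the background level, so they set no fold change. Its adjusted p was 0.176, 0.0921, 0.103 and 0.154 in the 4 comparisons.

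**Figure D3:**
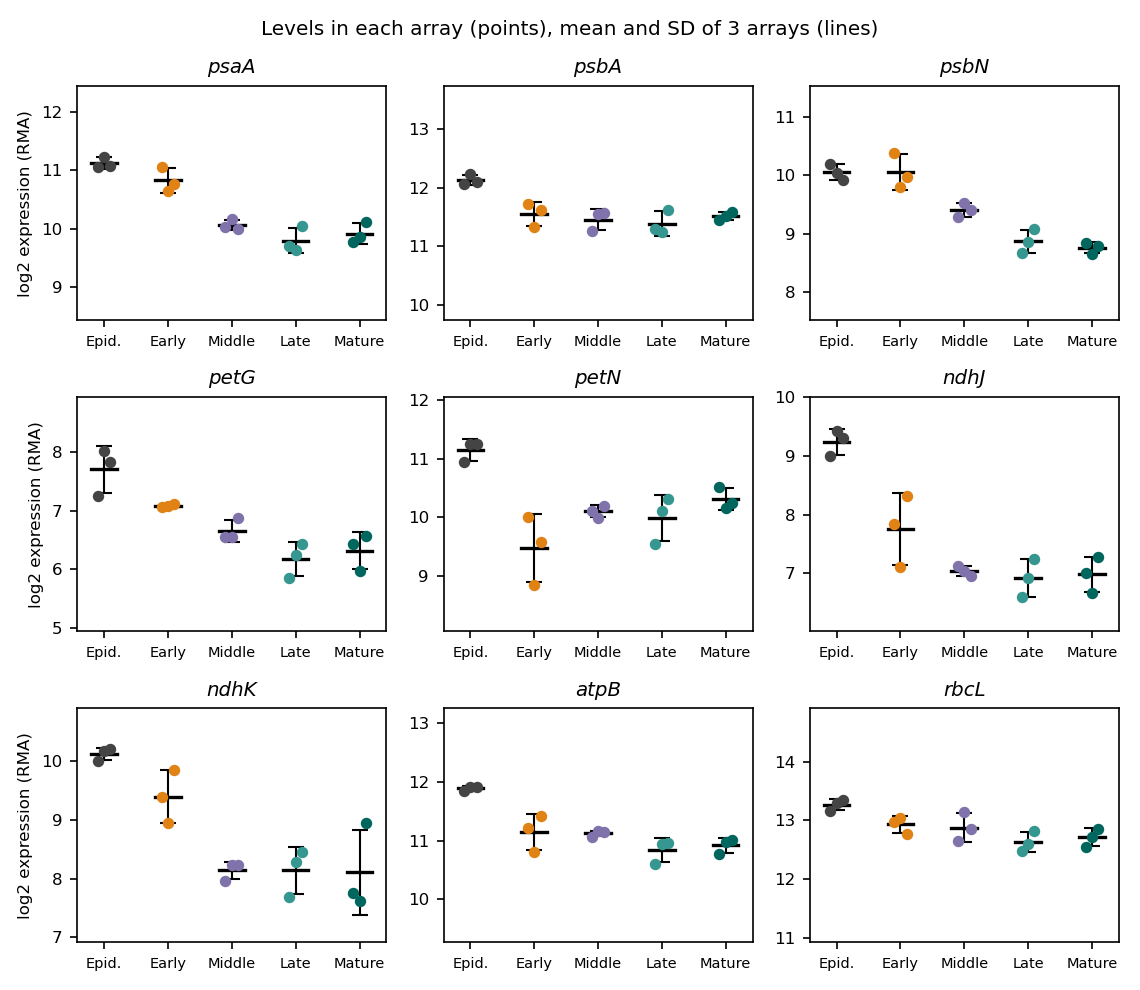
Log2 value of each array (points, 3 per population) with the population mean and SD (lines) for 9 members; the axis of each panel spans the same range of log2 units. psaA and psbN keep early values at or near the epidermis, whereas atpB and ndhJ are already lower in early precursors.

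In the plot of values by array, psaA and psbN have early values near the epidermis and atpB and ndhJ lower ones, a difference between genes that was not tested. Between early and middle precursors 3 members fell and 0 rose, and the share of all probe sets called was 4.03% lower and 5.47% higher, with 2.97% lower among those above background. psaA fell by 0.76 (SE 0.15, adjusted p = 0.0113), psbN by 0.64 (SE 0.16, adjusted p = 0.0311) and ndhK by 1.26 (SE 0.33, adjusted p = 0.0332) on the log2 scale. The psbN call was lost under 9 of 23 alternatives, with an adjusted p of up to 0.171. The ndhK call was lost under 7 of 23 alternatives, with an adjusted p of up to 0.109. Each of the 3 calls, psaA included, was lost under some alternatives. The median of the 43 members was -0.35, against -0.11 over all probe sets and 0.24 over those above background. All 3 middle arrays lay below all 3 early arrays for 14 members, which held for 19.2% of all probe sets. With cyclic loess normalisation between arrays the count was 17 and the median -0.72, so the step from early to middle depends on the scaling of the arrays. With array weights, or with only the arrays of both stages fitted, limma called 0, with 9 at an unadjusted p below 0.05 in each.

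Between middle and late precursors 0 members passed limma's threshold in either direction, and 7 had an unadjusted p below 0.05. The share of all probe sets called was 1.58% lower and 2.23% higher, with 2.9% lower among those above background. The median was -0.27, and all late arrays lay below all middle arrays for 16 members, against 14% of all probe sets. With array weights 10 members were called lower, but late replicate 2 then had a weight of 9.61, against 0.29 to 2.04 for the other arrays. Between late precursors and mature guard cells 0 members were called, 0 had an unadjusted p below 0.05, and the differences ranged from -0.32 to 0.70 with a median of 0.07. Of all probe sets 0.0716% were called lower and 0.0668% higher there, so few of any kind were called. The members' 95% intervals, not adjusted for the number of probe sets, reached 0.45 to either side at the median. Calls rested on adjusted p-values, so changes larger than this could also go uncalled. All mature arrays lay below all late arrays for 0 members, against 8.02% of all probe sets.

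Across the lineage alone, limma's moderated F test over the 4 stages called 10 of 43 members, against 16.8% of all probe sets and 26.4% of those above background, so the share lay near the background. They were psaA, psbB, psbC, psbD, psbK, psbN, petB, petG, ndhH and ndhK. Early precursors held the highest stage mean for 37 members and late precursors the lowest for 26, with mature guard cells lowest for 12. The means descended from early through middle to late for 36 members. psaI, psbM, petL and petN had their lowest mean in early precursors instead, the population with the widest spread, and early replicate 2 was the lowest array of each. Without that array, petN alone of the 4 kept its lowest mean in early precursors. ndhF, below background throughout, was lowest in the middle stage.

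**Figure D4:**
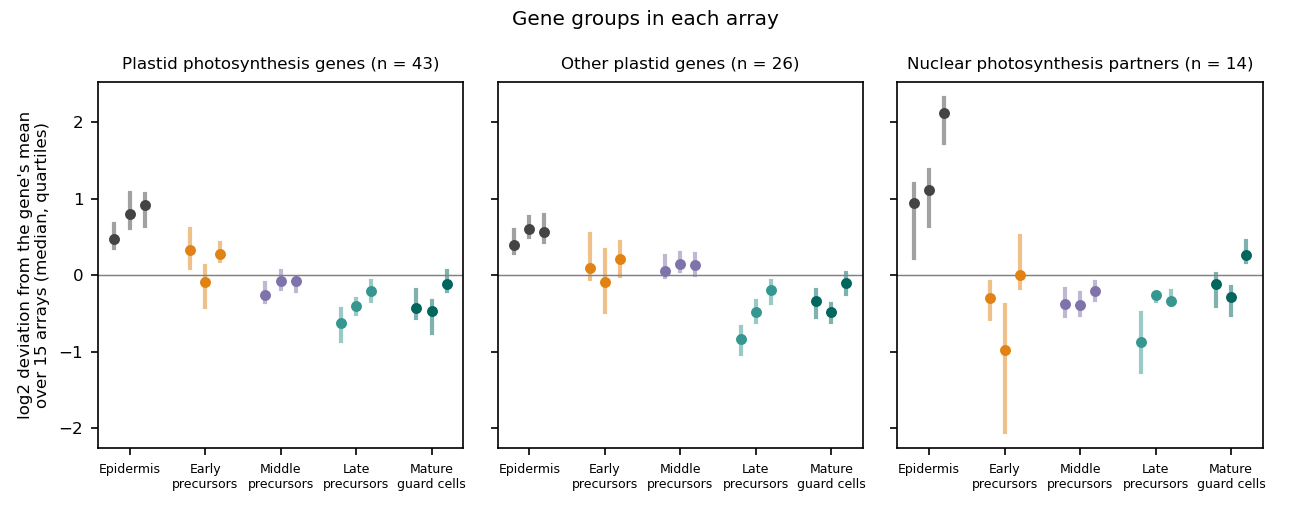
Median deviation of each gene group from its genes' means over the 15 arrays, one point per array with quartiles as a bar (log2 scale), for the members, the other plastid genes and nuclear-encoded partners. The epidermis arrays are highest in all 3 groups, and in middle precursors the members lie below the other plastid genes.

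The other 26 plastid genes measured, for gene expression and other functions, were set beside the members. They fell in 6 cases in early, 2 in middle and 22 in late precursors and 12 in mature cells, with medians of -0.44, -0.37, -1.03 and -0.86. The plot of medians by array shows the middle precursors apart. There the members' median deviation minus that of the other plastid genes was -0.31, -0.23 and -0.22, whereas it lay between -0.10 and 0.36 in the other 12 arrays. In middle precursors 27 of 43 members and 2 of 26 other plastid genes were called lower than the epidermis, against 2.29% of all probe sets. The members' count there ran from 4 to 32 when single arrays were left out. Between middle and late precursors 7 of the 26 fell while 0 of 43 members passed the threshold, with medians of -0.60 and -0.27. The difference between the gene groups itself was not tested.

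Members can also be read by transcription unit, 35 of the 43 lying in 10 units of several measured genes. The ndhC unit (ndhC, ndhK and ndhJ) was lowest, with medians of -0.97, -1.99, -2.08 and -2.02 in early, middle, late and mature cells. In the ndhH unit, 7 of 7 genes were called from the middle stage on, although psaC, a photosystem I gene between ndhE and ndhD, belongs to another complex. In late precursors psaC differed by -0.83, ndhE by -0.98 and ndhD by -1.04, while ndhI of the same unit differed by -1.75. The psbB unit, with genes of photosystem II and b6f, went from 1 of 5 called in early precursors to 4 in the middle and 5 in the late and mature cells. The psbE unit stayed at 0 of 4 in early, middle and mature cells and reached 2 in late precursors, and there its genes ranged from -1.37 to -0.37. Genes of a unit share transcripts, and the signals of neighbours are not independent.

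**Figure D5:**
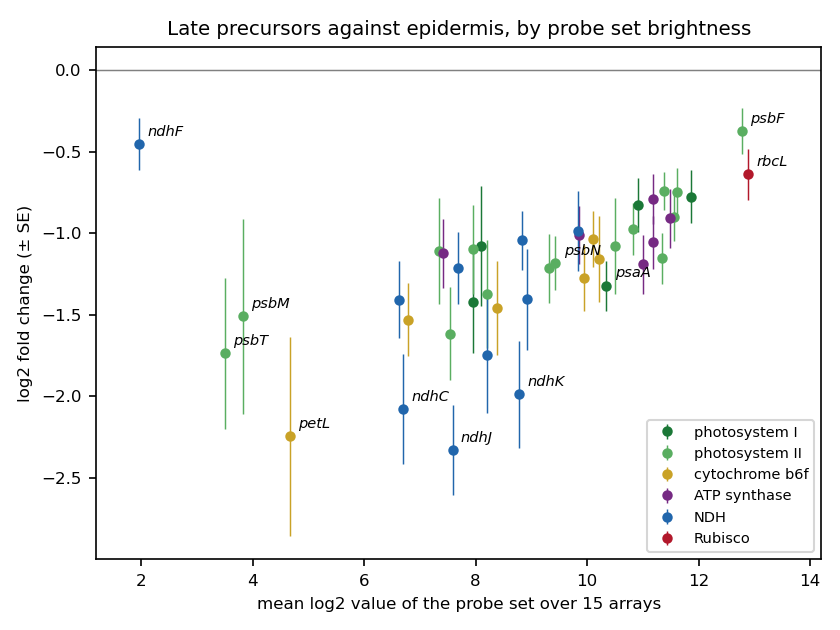
Log2 difference of late precursors from the epidermis against the mean log2 value over the 15 arrays, one point per member with its SE, coloured by complex. Brighter probe sets show smaller differences, and rbcL and psbF at the bright end lie nearest to 0 among the probe sets well above background.

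Probe set brightness moved with the size of the difference. Of the 43 members, 23 were in the brightest 1% of the array by mean over all arrays, as the plot against brightness shows. Across the 43 genes, brightness and the log2 difference in late precursors had a Pearson r of 0.52 and a Spearman rho of 0.68, given as a description of genes that share arrays and transcripts. The 22 brighter members had a median of -1.0 and the 21 dimmer ones -1.42 in late precursors, and -0.91 and -1.39 in mature cells. Of the NDH genes 2 of 10 were in the brightest 1%, against 5 of 6 ATP synthase genes. The part of brightness in the order of the complexes was not tested.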

How the data were processed

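Each sample's RNA was amplified to cDNA, labelled and hybridised to an ATH1 array, per the labels' protocols. The deposited values are summarised probe set signals on a log2 scale, the base being inferred from their range of 1.11 to 13.35, and affy and RMA are named in the submitters' processing notes. Versions and any genome build are not given in the sources used here. Probe sets were named through the platform's gene table, 12720 of the 12783 single-gene ones matching the RefSeq gene table. A linear model with 1 mean per population was fitted to all 15 arrays and 20956 probe sets with limma 3.58.1 (lmFit and eBayes, R 4.3.3), with Benjamini-Hochberg adjustment within each comparison and a threshold of 0.05, two-sided, and 10 residual degrees of freedom. The fit was tested on simulated data with the same spread in all populations, so that test did not cover the wider spread of the early precursors. Arrays have no read depth, and their number limits the precision. Members and gene lists were chosen with earlier results of these data known. Array values are given for the genes of largest and smallest F over the 5 populations in each complex and for psaA, psbA, petB, ndhJ, atpA and rbcL, and all members are accounted for. The symbol FDH of the epidermal list matched formate dehydrogenase and was dropped. Alternatives covered scaling, array weights, prior, filter, groups fitted, replicate block and left-out arrays. No sequences are shown.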

Additional observations from a re-analysis of the deposited data

How the results depend on the processing

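Against the epidermis no member was called higher under any alternative; between stages psaI was called higher in middle than early precursors without early replicate 3, by 1.24 on the log2 scale (limma adjusted p = 0.0300), when 3 members in all were called. Of 98 differences of named members, 27 changed sign under some alternative, and 0 of these were called before or after the change. They include 3 from the epidermis, all in early precursors: psaA, psbN and rbcL became 0.04, 0.30 and 0.08 with cyclic loess. Without 1 array at a time, the members called against the epidermis numbered 4 to 13 in early, 4 to 32 in middle and 29 to 40 in late precursors and 17 to 35 in mature guard cells. They numbered 0 to 6 from early to middle, 0 to 1 from middle to late and 0 to 0 from late to mature, and 4 to 14 by the F test. For early precursors the count was 4 without epidermis replicate 2 or 3 and 6 without early replicate 2. For middle precursors it was 12 and 6 without epidermis replicates 2 and 3, 4, 11 and 9 without middle replicates 1, 2 and 3, and 18 without late replicate 2. For mature cells it was 17 without epidermis replicate 3 or mature replicate 2 and 20 without mature replicate 1. With only the groups compared, limma gave 0 members in early precursors against the epidermis (20 at an unadjusted p below 0.05) and 0 from early to middle (9). Cyclic loess gave 5 for early precursors, 17 from early to middle and 23 by the F test, and array weights gave 2, 0 and, from middle to late, 10. Those weights favoured late replicate 2, at 9.61 against 0.29 to 2.04 for the other arrays. An intensity trend with a robust prior gave 8 for middle precursors and 4 by the F test. Centring on probe sets not listed to an organelle gave 4, the filter on dim probe sets 5, and averaging late replicates 2 and 3 gave 6 by the F test. Without the early arrays in the fit, 1 member was called from middle to late. The cause of these changes was not tested. Calls lost under none of the alternatives were 25 of 38 in late precursors, 15 of 30 in mature cells, 4 of 27 in middle precursors (psaA, ndhG, ndhJ and ndhK) and 0 of 12 in early precursors. Correlations of same-numbered arrays ran from -0.10 to 0.17, and 7 of 15 arrays were closest to one of their own number. No range was taken for differently numbered arrays, so whether replicate numbers pair the samples was not settled. The replicate block gave 12, 23, 38 and 28 members against the epidermis, 3, 0 and 0 between stages and 8 by the F test. Counting all probe sets of a gene gave the same genes, since each has 1. Signal near background limits ndhF and the mature value of psbT.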

Other observations

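By median, nuclear genes listed with the same complexes were also lower than in the epidermis, though not each of them. Of 14 measured, 9 were called lower than the epidermis in early, 8 in middle and 11 in late precursors and 2 in mature cells, with medians of -1.57, -1.64, -1.99 and -1.36, and 0 were called between neighbouring stages by limma (1, 1 and 2 at an unadjusted p below 0.05 from early to middle, middle to late and late to mature). The share of all probe sets called lower than the epidermis was 5.51%, 2.29%, 3.26% and 1.62% in early, middle, late and mature cells. The mature pair were PSBW and NdhL. PSAE-1 and PSAN of photosystem I differed in log2 value by -2.61, -1.86, -1.96 and -1.58 and by -3.10, -2.62, -2.73 and -1.96 in early, middle, late and mature cells. PSBW and PSBY of photosystem II differed by -1.47, -1.63, -2.02 and -1.19 and by -1.46, -1.61, -1.69 and -1.34. The antenna gene LHCB4.1 differed by -1.67, -1.64, -2.17 and -1.28, and LHCB4.2 and LHCB4.3 had 0.0365 and 0.844 as their adjusted p in late precursors. ATPC1, the gamma subunit of the ATP synthase, differed by -2.19, -2.01, -2.17 and -1.64, and its relative ATPC2 by 0.16, 1.28, -0.01 and 0.16. Of the NDH list, NdhL differed by -1.39, -1.40, -1.49 and -1.38 with stage means below background, NdhN by -1.06, -1.03, -1.33 and -1.0 and PIFI by -2.51, -2.57, -2.40 and -2.03. RCA differed by -1.90, -2.29, -2.35 and -1.87.

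Among other plastid genes, the RNA polymerase core was called lower for 0 of 4 genes in early and middle precursors (0 and 1 at an unadjusted p below 0.05 by limma), 3 in late precursors and 1 in mature cells. rpoA, rpoB and rpoC2 differed in late precursors by -0.99, -1.04 and -0.96. Of 15 ribosomal protein genes, 2, 0, 13 and 5 were called in early, middle, late and mature cells, and rps4, rpl22 and rps19 differed in late precursors by -0.97, -1.38 and -1.34. Of 7 genes for assembly and other functions, 4, 2, 6 and 6 were called. The photosystem I assembly gene ycf3 rose by 0.51 (SE 0.13, limma adjusted p = 0.0355) from early to middle precursors and fell by 0.60 from middle to late. accD, of fatty acid synthesis, also fell by 0.60 from middle to late. Of 8 nuclear factors of plastid RNA stability and editing, 0 were called in any comparison by limma, 0 to 1 had an unadjusted p below 0.05, and most lay near background.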
